A study of Drosophila melanogaster with 28 samples.

Results

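Translation efficiency (TE) at 38 h after heat shock (AHS) was compared with TE before heat shock (no HS) in Drosophila melanogaster ovaries whose germline stem cells (GSCs) were released from arrest by a pulse of Bam. TE of a gene is its Ribo-seq FPKM, the density of ribosome-protected fragments on it, divided by its RNA-seq FPKM, so the TE change is the footprint change with the RNA change taken out. Of the 13884 genes found in both deposited tables, 5810 exceeded 10 FPKM in at least 1 of the 2 RNA columns and in at least 1 of the 2 Ribo-seq columns and form the set described here. BomS6, an immune-induced peptide gene, was listed at 0 FPKM in the no HS Ribo-seq and at 28.0 FPKM at 38 h, which leaves 5809 genes with a TE change. At the edge of the set, CG4622 entered with 10.02 RNA FPKM at no HS and CG11398 stayed out at 9.999, while CG8412 entered with 10.0005 Ribo-seq FPKM at 38 h and CG43088 stayed out at 9.99 at no HS.

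All flies, in both groups, were w and homozygous mutant for bam (bam86/bam86), with the heat shock promoter transgene P{w[+mC]=hs-bam.O}11d on one of these chromosomes. They also had a copy of the germline driver nosP-GAL4-NGT40 over a wild-type chromosome (nosP-GAL4-NGT40/+). The no HS group was left unshocked and its ovaries fill with GSC-like cells, whereas the 38 h AHS group was kept at 37°C for 1 h and 34°C for 2 h and returned to 25°C until the latest cyst stage of the time course. Whole ovaries were used, so somatic cells contributed RNA and footprints, cysts at late times were of mixed stages, and heat itself separates the groups as well as Bam. Each assay had 2 libraries per time point, which the authors combined into 1 FPKM value per gene with lower and upper 95% bounds. No value per library was used, so no test was made: a gene is called higher or lower when its TE differed by more than 1.6-fold, and combined bounds (2 standard errors from the 4 deposited bounds, added in quadrature) are given beside it.

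The number of footprints on an mRNA reflects how often ribosomes start and how long they take, and germ cells use repressors and activators of initiation to time the use of stored or shared mRNAs during cyst formation. Bam, with its partner Bgcn, is itself a repressor of translation that ends the stem cell state. FPKM are relative within an assay, so a TE change is relative to the other genes of the ovary. In whole ovaries a smaller share of a cell type and less RNA per cell cannot be told apart.

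Sequencing depth is unknown here. At the median gene the upper bound lay 19.8% above the value for the RNA-seq at no HS and 19.6% at 38 h, and 25.1% and 25.0% above it for the Ribo-seq. The median standard error of the log2 TE change was 0.34, so 2 standard errors about equal a 1.6-fold change at such a gene. The transgene followed its label: bam RNA was 23.7 FPKM at no HS, 1053 at 0.5 h AHS and 18.1 at 38 h. The germ cell helicase gene vas was at 211 RNA FPKM at 38 h and the follicle cell regulator tj at 119, so germline and somatic cells were both present.

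TE was lower in more genes than it was higher. In all, 317 genes had a TE more than 1.6-fold lower at 38 h (5.46% of the genes) and 72 had one more than 1.6-fold higher (1.24%). With combined bounds that also left out 0, 167 were lower (2.87%) and 33 higher (0.568%). For 166 genes, entry came only through RNA at 38 h, which fixes their RNA as higher. Past 1.6-fold, 278 of the other 5643 genes were lower and 68 higher. These still hold genes that entered only through RNA at no HS, which fixes their RNA as lower. They also hold genes that entered only through the no HS or only through the 38 h Ribo-seq column. That fixes the direction of their footprints. Over 10 FPKM in all 4 columns, 253 genes were lower and 47 higher. The median log2 TE change was -0.11, with the 25th and 75th percentiles at -0.32 and 0.09, and 64.6% of genes lay below 0. The excess of lower TE depends on the scale: centred on the median of all genes, 200 were lower and 120 higher, and rescaled so that each column had the same total FPKM, which moves every gene up by 0.29, 110 were lower and 319 higher and the median was 0.18. RpL41 alone makes most of that shift, since without it the rescaling gave 234 lower and 104 higher. The medians of gene lists are therefore given relative to the median of all genes. Their counts past 1.6-fold, shares below 0 and values of single genes are not centred. List counts stand against 5.46% lower and 1.24% higher over all genes. Centring changed several counts, for example from 10 to 8 lower muscle genes and from 6 to 3 lower mitochondrial ribosomal proteins. It left 4 lower heat shock chaperones and 2 lower cell cycle genes unchanged.

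More of the called genes had footprints past 1.6-fold than RNA past it, and many had neither. Bounds were wider for Ribo-seq, at 25.1% and 25.0% of the median gene, than for RNA-seq, at 19.8% and 19.6%. Whether this bears on the counts was not tested. Among the 72 genes with higher TE, 43 had footprints past 1.6-fold higher with RNA within 1.6-fold, 8 had lower RNA with footprints within it, 2 had both higher, and 19 had neither past it. Among the 317 with lower TE, 149 had lower footprints and RNA within 1.6-fold, 20 had higher RNA with footprints within it, 13 had both higher, 1 had both lower, and 134 had neither past the limit. Over the same genes RNA was more than 1.6-fold higher in 1.76% and lower in 0.499%, and footprints were higher in 2.53% and lower in 3.96%. Genes with higher TE started from a median TE of 0.85 and reached 1.64, and genes with lower TE started from 3.31 and reached 1.77. The median over all genes was 1.43 at no HS and 1.34 at 38 h. The groups started on opposite sides of it, but TE at no HS is part of the call itself, so nothing is read from this.

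**Figure D1:**
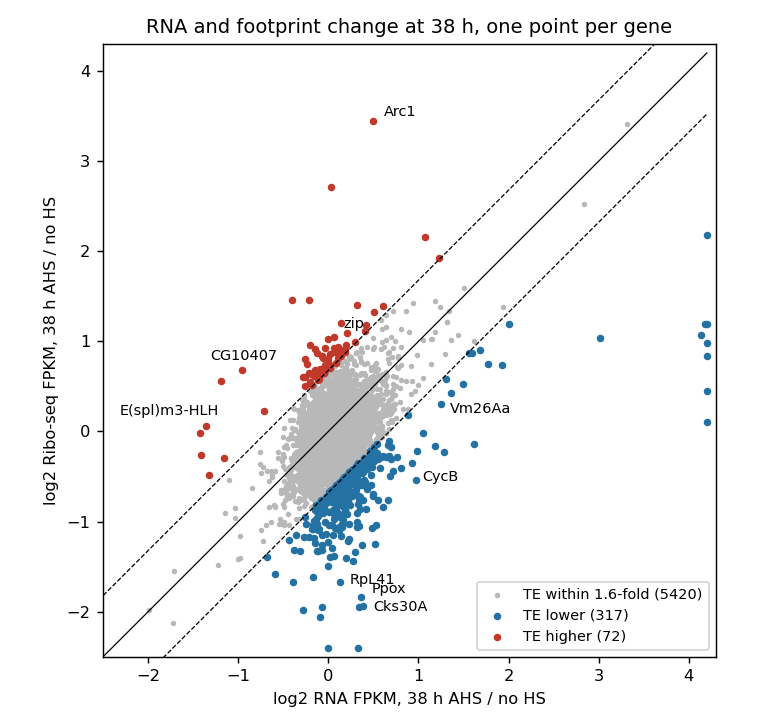
Each point is 1 gene, with its log2 RNA change (horizontal) and log2 Ribo-seq change (vertical) from no HS to 38 h AHS. The solid line marks no TE change and the dashed lines 1.6-fold; the 72 red genes lie above them and the 317 blue genes below, and 8 genes beyond the axes are drawn at the edge.

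The time points before 38 h share the no HS samples with it and are given side by side only. At 9 h AHS 482 genes were lower (8.29%) and 134 higher (2.31%) among 5813, and at 28 h 320 were lower (5.54%) and 36 higher (0.624%) among 5773. The median log2 TE change was -0.06 at 9 h and -0.13 at 28 h. The genes called lower at 38 h had median TEs of 3.31, 2.83, 2.28, 2.34, 2.83, 2.09 and 1.77 at no HS, 0.5, 5, 9, 18, 28 and 38 h. The genes called higher had 0.85, 1.36, 1.24, 1.28, 1.01, 1.09 and 1.64 at the same times. Both sets were chosen by their values at no HS and 38 h, so the ends of these series are fixed by the choice and no course over time is read from them.

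Arc1, a gene derived from a retrotransposon Gag that forms RNA-carrying capsids, had by far the largest TE gain among genes with well-measured RNA. Its RNA was 93.2 FPKM at no HS and 132 at 38 h, whereas its footprints were 56.8 and 619 FPKM, a 7.73-fold higher TE with a log2 change of 2.95 (combined bounds 2.32 to 3.58). Its TE was 0.61, 0.86, 3.74, 7.73, 0.58, 1.66 and 4.71 at no HS, 0.5, 5, 9, 18, 28 and 38 h, so it was high at 5 and 9 h, back at the starting level at 18 h, and high once more at 38 h. The gene lies at chr2R:14357927-14360297 on dm6.

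The rule for the largest changes asked for bounds off 0, more than 10 RNA FPKM at both times, and no more than a 3-fold change at 0.5 h AHS in either assay, when the ovaries had just left the heat. It left 139 lower and 24 higher genes. After Arc1 the highest was CG10407, with a log2 TE change of 1.63 (0.97 to 2.30), whose RNA was 20.6 and then 10.6 FPKM and whose footprints were 93.1 and then 149. CG13516 followed at 1.16 (0.15 to 2.17) and CG45087, which encodes 27 residues, at 0.99 (0.20 to 1.79).

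Behind them stood zip, the heavy chain of non-muscle myosin II, which drives cell division and cell shape. Its RNA stayed between 208 and 249 FPKM at every time point, while its footprints were 126 FPKM at no HS, 366 at 9 h and 262 at 38 h. The log2 TE change of zip was 0.99, with a lower combined bound of 0.38. The others were alpha-Est10, a carboxylesterase, at 0.90 (0.23 to 1.58), GstD9, a glutathione S-transferase, at 0.88 (0.10 to 1.67), CG10175 at 0.88, the tetraspanin Tsp42Ei at 0.87 and CG13384 at 0.83. Of these 10 genes, CG10407, CG13516, alpha-Est10, Tsp42Ei and CG13384 share their locus in the RNA table with another gene, so their RNA values may mix transcripts. A shared locus held for 2966 of the 5809 genes, so it is no trait of these 10. Of the genes named below, cona, CycA, bam, RpS20, RpL36A, Hsp68 and others share theirs as well.

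The lowest was Cks30A, the small Cdk-binding subunit that the female germline needs for meiosis. Its RNA was 40.4 FPKM at no HS and 52.6 at 38 h, and its footprints were 288 and 75.2 FPKM, a log2 TE change of -2.32 (-3.25 to -1.39). The TE of Cks30A was 7.12, 8.42, 5.72, 4.40, 4.68, 2.42 and 1.43 over the 7 time points, so most of the loss came at 28 and 38 h. Ppox, an enzyme of haem synthesis, had RNA of 11.5 and 14.8 FPKM and footprints of 101 and 28.3 FPKM, a log2 TE change of -2.20 (-2.92 to -1.48). Unlike Cks30A, Ppox was lowest at 5 and 9 h, at TEs of 1.25 and 1.27 against 8.77 at no HS, and it shares its locus with another gene, as do RpL41, CG32856, Sem1 and CG14516 among the 10 lowest.

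RpL41, which encodes a ribosomal protein of 25 residues and is the most heavily footprinted gene of the set, followed with -1.80 (-2.44 to -1.15). Its footprints were 372506 FPKM at no HS and 117230 at 38 h with RNA at 7550 and 8271. Below -1.5 were also CG40486 (-1.77), CG32856 (-1.71), CG14229 (-1.70), the proteasome lid subunit Sem1 (-1.64), the muscle troponin C gene TpnC73F (-1.60), CG14516 (-1.57) and EbpIII (-1.51). Footprints were 10.6 and 4.49 FPKM for CG40486 and 12.9 and 6.28 for CG14516. Both passed the Ribo-seq limit only through no HS, so their lower footprints are fixed by it. Of these 10 lower genes, 6 encode fewer than 150 residues, where the median of all genes was 450.

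**Figure D2:**
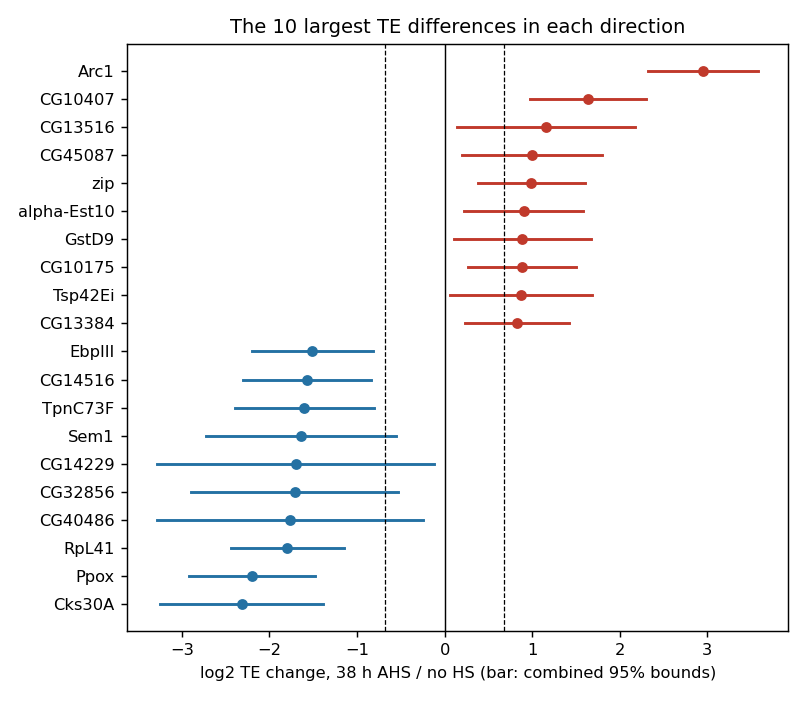
Points give the log2 TE change at 38 h AHS against no HS, for the 10 highest and 10 lowest genes under the rule, bars the combined 95% bounds, and dashed lines 1.6-fold. Arc1 at 2.95 stands apart from the other higher genes, which lie between 0.83 and 1.63, and all bars clear 0.

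The bases next to a start codon bear on how readily ribosomes begin there, so the bases around the start codon are shown for 6 of the 20 largest changes, taken from the Release 6 genome for the transcript with the longest coding sequence. The first 3 had lower TE and the last 3 higher TE at 38 h. Capitals mark the start codon.
Cks30A (chr2L:9331045-9331067, plus strand): cgcagacacgATGagcaaggaca
Ppox (chr3R:24661713-24661735, minus strand): cagaaggaccATGacgacggccg
Sem1 (chr2L:7064076-7064098, plus strand): agcacacaaaATGtctgccccag
CG10407 (chr3R:16045897-16045919, minus strand): gaaacacaaaATGaaccaatact
GstD9 (chr3R:12366885-12366907, minus strand): gcgagtaatcATGttggacttct
CG13384 (chr2L:8384850-8384872, plus strand): gaaaaaatcaATGgaggacctga
Sem1 and CG10407, which changed in opposite directions, both carry CAAA directly before the start codon. That run or CAAC, AAAA or AAAC, read on the mRNA strand alone, stood there in 22.8% of 316 lower, 13.9% of 72 higher and 16.3% of all 5751 genes with a window. The share among lower genes is close to that of short proteins in general, since it was 20.6% over the bin of shortest proteins described next and 22.3% over the lower genes of that bin. An A at position -3, counted back from the start codon, stood in 74.1% of lower, 66.7% of higher and 65.5% of all genes. These are shares of letters, and no test was made on them.

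Lower TE was most frequent among short proteins. Genes were divided by protein length into 4 bins of nearly equal size. In the bin of the shortest proteins, 11 to 262 residues, 14.2% of 1452 genes had lower TE and 1.72% higher. In the next bins 3.81%, 1.94% and 1.87% were lower, against the 5.46% over all genes, and the shortest bin held 206 of the lower genes. With bounds that also left out 0, 7.16% of the shortest bin were lower (104 genes), and 1.80%, 1.25% and 1.32% of the others. The median standard error was 0.38 in the shortest bin and 0.32 in the longest. The median log2 TE change was -0.24 in the shortest bin and -0.11, -0.08 and -0.05 in the others. Both assays contributed, with the shortest bin at 0.13 in RNA and -0.09 in footprints and the longest at -0.003 and -0.05. The shortest bin lay at -0.20 relative to the longest, and at -0.195 once the cytosolic ribosomal proteins were left out.

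Protein length went with other properties, whose part in the pattern was not tested. Of the genes in the top bin of TE at no HS 13.2% were lower and of those in the bottom bin 2.34%, but TE at no HS is part of the TE change itself. Among genes below the median TE at no HS, 13.1% of the shortest and 1.30% of the longest bin were lower, and above that median 14.3% and 7.46%. Genes with the shortest 5′ UTRs, up to 93 bases, were lower in 8.92% and those with the longest in 2.35%. In the bin with the least RNA at no HS 9.36% of genes were lower and in that with the most 4.48%. The former holds the 166 genes that entered only through their RNA at 38 h, whose higher RNA is fixed by the limit. Among genes above the median RNA level 11.1% of the shortest bin were still lower, against 1.07% of the longest. The shortest bin also lay at -0.31 at 9 h and -0.34 at 28 h, where the longest lay at 0.20 and 0.05, so the gap between them was smaller at 38 h than at those times.

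**Figure D3:**
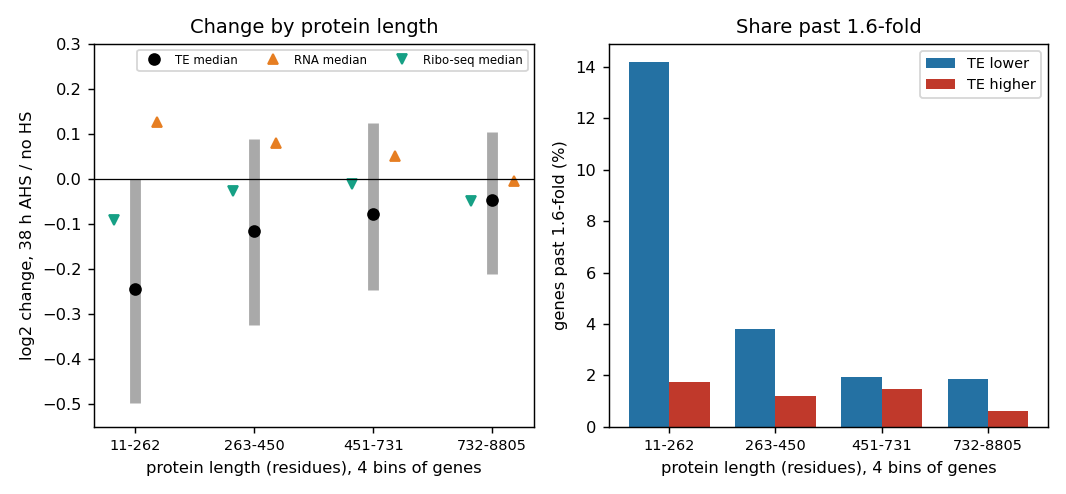
Left, median log2 change of TE, RNA and Ribo-seq in 4 bins of genes by protein length, with grey bars from the 25th to the 75th percentile of TE changes; right, percent of each bin with TE more than 1.6-fold lower or higher. The shortest bin has a median TE change of -0.24 and 14.2% lower genes, and the longest -0.05 and 1.87%.

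Of 26 cyclins and cell cycle switches with a TE change 2 were lower and none higher, a share near the 5.46% and 1.24% over all genes, and the median was -0.05 relative to all genes. The lower genes were the mitotic cyclins CycB and CycA. CycB, the mitotic B-type cyclin, had RNA of 64.8 FPKM at no HS and 123 at 38 h but footprints of 91.9 and 71.9, a log2 TE change of -1.28 (-1.87 to -0.69). Its TE was 1.42, 1.50, 1.43, 1.62, 0.96, 0.73 and 0.58 over the 7 time points, so it was lower from 18 h on. CycA, the A-type cyclin, had RNA of 78.6 and 98.5 FPKM and footprints of 75.1 and 49.7, a log2 TE change of -0.92 (-1.53 to -0.31). Its TE stayed between 0.83 and 1.08 until 28 h and was 0.51 at 38 h.

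The other cyclins differed less, with CycB3 at -0.07, CycD at 0.10 and CycE at 0.02, and their kinase partner Cdk1 at 0.18. The bounds of CycA and CycB do not reach 0, and those of CycB3, CycD, CycE and Cdk1 span it. None of 27 listed chromatin and histone variant genes passed the limit, and the median was -0.18 relative to all genes, with 21 of them (77.8%) below 0, against 64.6% of all genes. The lowest was the satellite-binding protein D1, at a log2 TE change of -0.62 (-1.22 to -0.03), while His3.3B, a histone H3.3 gene, was at -0.39. For DNA replication 1 of 43 was lower, with Mcm7, a helicase subunit, highest at 0.64 and Sld5, of the GINS complex, lowest at -0.73 with bounds that span 0.

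**Figure D4:**
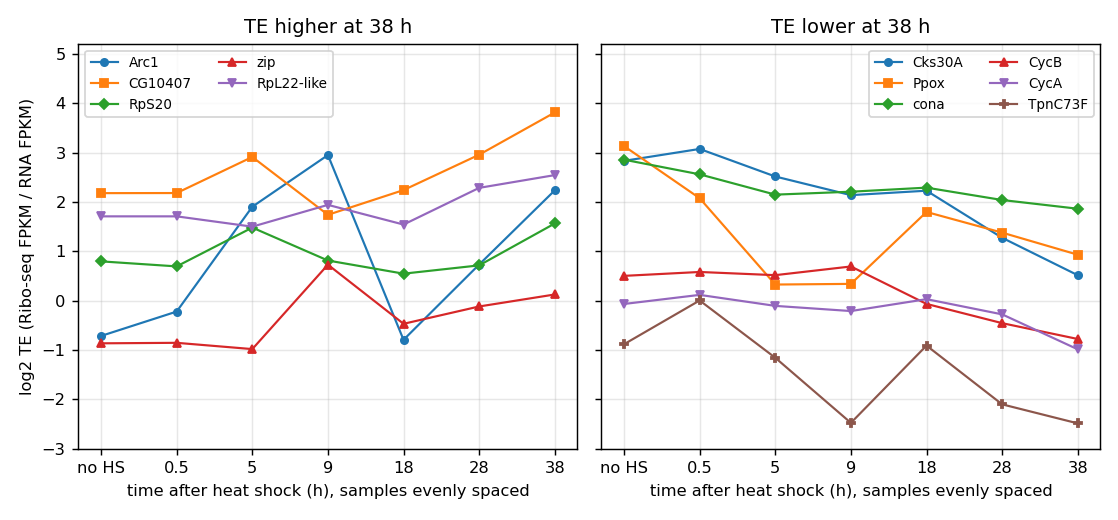
Log2 TE at no HS and at 0.5 to 38 h AHS, evenly spaced, for genes with higher (left) and lower (right) TE at 38 h; each point is the ratio of the authors' Ribo-seq and RNA-seq values. Arc1 is high at 5, 9 and 38 h, CycB and Cks30A are lower at 28 and 38 h than at any earlier time, and Ppox and TpnC73F have their low points at 5 to 9 h and at 9 and 38 h.

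Of 25 synaptonemal complex, recombination and cohesion genes 1 was lower and 1 higher in TE, with a median of 0.06 relative to all genes and median changes of 0.23 in RNA and 0.17 in footprints. Both values were above 0 in 14 of the 25 and below 0 in 5, and 2 were past 1.6-fold in both assays. Over all 5809 genes, both were above 0 in 1931 and below 0 in 1500, and 64 were past 1.6-fold in both. The lower gene was cona, a central element protein, with RNA of 25.9 and 17.1 FPKM, footprints of 187 and 62.4, and a log2 TE change of -0.99 (-1.68 to -0.30). Its TE was 7.24 at no HS, already 4.43 at 5 h, and 3.64 at 38 h. The higher gene, mei-W68, which makes the meiotic breaks, was at 1.08 with bounds from -1.57 to 3.72. The remaining complex members c(3)G (-0.37), corolla (-0.32) and c(2)M (0.51) had bounds that span 0.

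Among 18 oocyte and germ plasm genes 2 were lower, CycB and stau, and 1 was higher, grk. The gene of the double-stranded RNA-binding protein Staufen, stau, had footprints of 25.6 and 9.78 FPKM with RNA at 49.2 and 30.7, a log2 TE change of -0.71 (-1.38 to -0.04). It passed the Ribo-seq limit only through no HS, so its lower footprints are fixed by the limit. The axis ligand grk was at 1.08, and its bounds of -2.09 to 4.26 span 0. It passed both limits only through 38 h, so nothing is read from its ratio. The gene orb, whose product activates mRNAs in the oocyte, had RNA of 78.0 and 161 FPKM and footprints of 50.7 and 103, so its TE was nearly the same at 0.65 and 0.64. None of 12 egg activation genes passed the limit, and their median was -0.18 relative to all genes. Several mRNAs of this kind were outside the set because of few footprints: dhd, a thioredoxin, had 142 RNA FPKM at 38 h and 8.17 of footprints, and osk, the germ plasm organiser, 58.1 and 1.64. These are among 601 genes of 6411 that passed the RNA limit and not the Ribo-seq limit.

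Among 42 germline RNA-binding and translation regulators 2 were lower and none higher, with a median of -0.12 relative to all genes. They were stau, whose lower footprints are fixed by the limit as above, and bam, whose log2 TE change was -1.28 (-2.07 to -0.49). The values of bam do not tell reads of the mutant gene from those of the transgene, and their source was not tested. The partner of Bam, bgcn, had RNA of 40.5 and 12.4 FPKM and footprints of 36.4 and 12.4, a log2 TE change of 0.16 (-0.48 to 0.80). RNA and footprints of bgcn were thus lower in step. The translational repressor bru1 had RNA of 110 and 210 FPKM and footprints of 41.01 and 110, at 0.49 (-0.16 to 1.13), and the RNA-binding protein Rbp9 was at 0.55 (-0.17 to 1.27). The piRNA pathway had 1 lower gene of 34, the Piwi partner arx at -0.95 (-1.71 to -0.20), and piwi itself was at -0.04 with more RNA, at 224 and 348 FPKM.

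For cytosolic ribosomal proteins 6 of 87 were lower (6.90%) and 2 higher, against 5.46% and 1.24% over all genes. Their median was -0.10 relative to all genes. Their median length was 156 residues, within the shortest bin, where 14.2% of genes were lower. The lower were RpL41, RpL36A at -1.14 (-1.74 to -0.54), RpL36, RpL34a, RpL13 and RpS15Ab, and the higher RpL22-like at 0.84 (0.17 to 1.50) and RpS20 at 0.77 (0.15 to 1.38). RpL22-like, a germline paralogue of RpL22, had less RNA, at 21.2 and 8.51 FPKM, and footprints of 69.4 and 49.6. It passed the RNA limit only through no HS, so its lower RNA is fixed by the limit. RpS20 had the same RNA at both times, 2021 and 1974 FPKM, and footprints of 3510 and 5836, and its TE was also high at 5 h. Among mitochondrial ribosomal proteins 6 of 72 were lower (8.33%) and none higher (median -0.09 relative to all genes), 2 of the lower with bounds off 0. Their median length was 193 residues, also within the shortest bin.

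Of 68 respiratory chain and ATP synthase genes 6 were lower (8.82%) and none higher (median -0.08 relative to all genes). The median length of their proteins was 151.5 residues, within the shortest bin, where 14.2% of genes were lower. ATPsynF (-0.93), ND-MNLL (-0.85), COX6B (-0.83), RFeSP (-0.73) and COX5A (-0.71) had bounds off 0, and the lowest, ATPsynepsilonL, was at -1.22 with bounds that span 0. A further ATP synthase subunit gene outside the list, sun, was at -1.27 (-1.88 to -0.66). None of 31 proteasome subunits passed the limit (-0.13), with the base ATPase Rpt3 at -0.66 (-1.25 to -0.07). Sem1 was not on the proteasome list. None of 23 aminoacyl-tRNA synthetases passed it (0.06), with the furthest, AIMP1, at -0.38, and 1 of 42 translation factors did (-0.02), eIF6, which keeps ribosomal subunits apart, at -0.72 with bounds that span 0. Of 32 ribosome biogenesis genes 3 were lower (-0.13). Of 37 genes of ER translocation and N-glycosylation 1 was lower (0.03), Srp14 of the signal recognition particle, and none of 8 tubulins (-0.20).

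**Figure D5:**
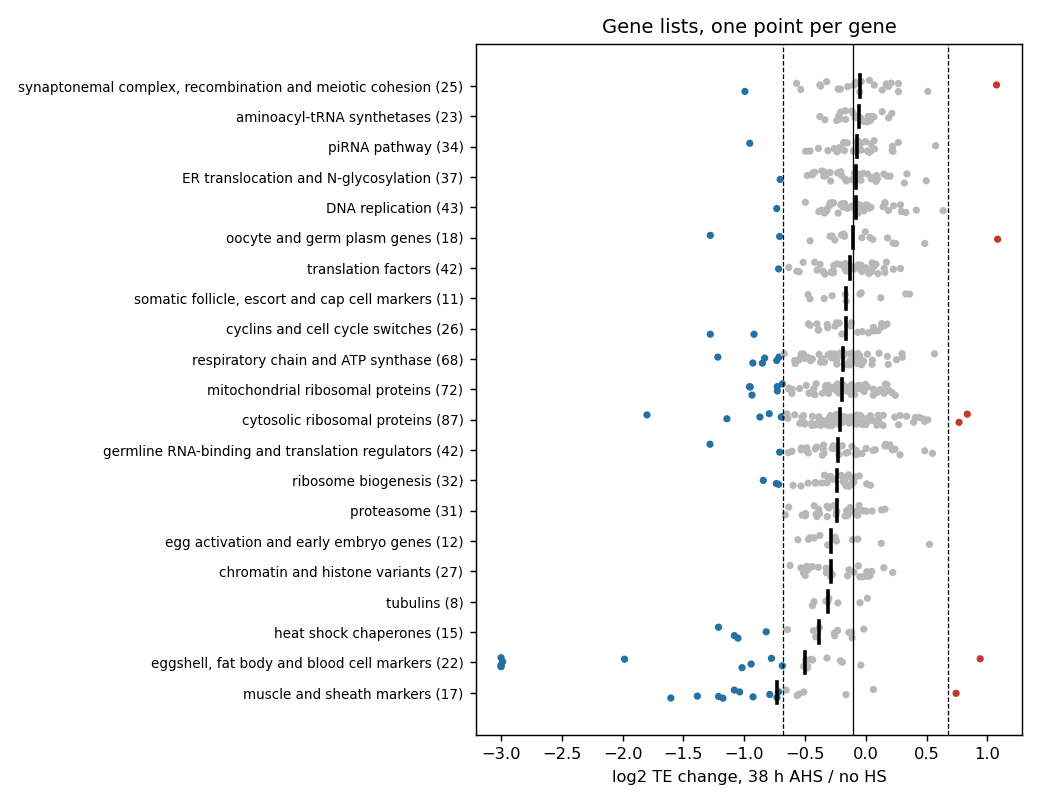
Each point is a gene's log2 TE change from no HS to 38 h AHS, with the number of genes of each list in brackets, red and blue for genes past 1.6-fold, black bars at list medians, the solid line at the median of all genes and dashed lines at 1.6-fold. The medians of the muscle, eggshell and chaperone lists lie left of the solid line, with at least 1 gene of each list to its right, and 4 eggshell genes beyond -3 are drawn at the edge.

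Heat shock chaperones lay low in TE, and their list median stayed below 0 under each scaling. All 15 lay below 0, where 64.6% of all genes did, 4 were lower and none higher, against 5.46% and 1.24% over all genes, and the median was -0.27 relative to all genes. Those past the limit were Hsp68 at -1.21 (-1.81 to -0.61), Hsp22 at -1.08, Hsp23 at -1.05 and Hsp26 at -0.82, all induced by heat, and each had bounds off 0. Hsp68 RNA was 33.5 FPKM at no HS, 2172 at 0.5 h and 47.4 at 38 h, and its TE was 2.35, 2.83, 1.75, 1.37, 0.95, 0.85 and 1.01. The constitutive Hsc70-4 was at -0.38 with bounds that span 0. Over all genes, 89 had changed more than 3-fold at 0.5 h in either assay, and 25 of these were lower and 8 higher in TE at 38 h.

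Muscle genes, which mark the contractile sheath around the ovary, had the lowest median of the lists, -0.62 relative to all genes, and it stayed below 0 under each scaling. Of 17 with a TE change 10 were lower and 1 higher, against 5.46% and 1.24% over all genes. With bounds off 0, 7 were lower and 1 higher, against 2.87% and 0.568%. TpnC73F had RNA of 134 and 154 FPKM and footprints of 72.7 and 27.5, and Tm2, a tropomyosin, was at -1.39 (-2.05 to -0.72). Mlp60A, a LIM protein, was at -1.21, Zasp66 at -1.17 with bounds that span 0, Mf, of the thick filament, at -1.08, and the myosin light chain Mlc1 at -1.04. RNA of the list was not lower, with a median RNA change of 0.15 against -0.58 in footprints.

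Mhc, the muscle myosin heavy chain, was the exception, with RNA of 198 and 199 FPKM, footprints of 14.4 and 24.3, and a log2 TE change of 0.74 (0.14 to 1.34). It encodes 1962 residues, and TpnC73F 155. Over all 24 listed muscle genes the summed RNA was 2836 and 3094 FPKM and the summed footprints 1709 and 1258, and no gene was at 0 in RNA. The actins of this list, Act57B (-0.55) and Act87E, are near-identical in sequence, and their reads may have been split between copies. Somatic follicle, escort and cap cell markers differed from the sheath, since none of 11 passed the limit and the median was -0.05 relative to all genes.

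Eggshell, fat body and blood cell markers were the remaining list. The study set chorion and vitelline membrane genes aside as contaminants from somatic cells, and the source of their footprints at no HS was not tested. Of the 22 genes 5 entered the set only through their RNA at 38 h, so their higher RNA is fixed by the limit and nothing is read from them. Of the other 17, 5 were lower and 1 higher in TE, 4 of the lower with bounds off 0, with a median of -0.37 relative to all genes and a median RNA change of 0.71. The higher gene, Cp7Fb, had RNA of 11.9 and 7.24 FPKM. It passed the RNA limit only through no HS, so its lower RNA is fixed by the limit. The chorion gene Cp15 had RNA of 1.06 and 75.2 FPKM and footprints of 830 and 3759, so its log2 TE change of -3.98 started from a ratio of 786 over little RNA. Vm26Aa, a vitelline membrane gene made by follicle cells of late egg chambers, had RNA of 5172 and 12291 FPKM and footprints of 57301 and 70816, at -0.94 (-1.86 to -0.03). Cp15 and the chorion genes Cp18 (-3.07) and Cp38 (-3.46) are among the 5 that entered only through RNA at 38 h, so nothing is read from their ratios. The chorion gene Cp36 (-1.98), over the RNA limit at both times, had RNA of 11.8 and 95.3 FPKM and footprints of 414 and 846. The 5 lowest raw TE changes of the set were CG13084 at -4.79, Cp7Fa at -4.61, the antifungal peptide gene Drs at -4.50, Cp15 and CG13083. All had less than 4 RNA FPKM at no HS, so each entered only through its RNA at 38 h. Whether RNA-seq and Ribo-seq ovaries held the same share of late egg chambers was not tested.

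Of the other genes the study names, few were past the limit. Pxt, a peroxidase of prostaglandin synthesis, had RNA of 44.4 and 35.7 FPKM and footprints of 29.8 and 11.9, a log2 TE change of -1.01 (-1.68 to -0.33). Its TE was 1.05 at 9 h and 0.33 at 38 h. Cirl, a latrophilin receptor, was at 0.65 (0.05 to 1.25), just under the limit, with RNA at 144 and 118 FPKM and footprints at 26.9 and 34.5. The remaining named genes mod (-0.16), hts (0.26), Dp1 (-0.40), Rbfox1 (-0.36), blanks (0.22), eIF4E3 (0.29), nos (-0.25), alphaTub67C (-0.31), moon (-0.10), png (-0.56) and Trf5 (0.02) all had bounds that span 0.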

How the data were processed

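Ovarian RNA-seq and Ribo-seq had 2 libraries per time point. The authors mapped reads to dm6 with STAR, removed non-coding RNA reads (Bowtie and Bowtie2 are also named in the submitters' processing notes), and deposited FPKM from Cuffdiff 2.2.1, 1 value per gene and time point over both libraries, with 95% bounds and a status. Cuffdiff's library scaling and annotation are not given in the sources used here. Depth per library is unknown, since FPKM holds no counts.

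Python 3.11.15, numpy 2.4.6 and pandas 2.3.3 were used. Genes were joined on name. A standard error was the upper bound minus the value, divided by 2, and errors of the 4 values were added in quadrature on the log scale. Protein and UTR lengths, start codons and positions came from Ensembl release 115 and the Release 6 genome, matched by symbol (5452) or RefSeq synonym (328). Positions are counted from 1. Genes were named by a rule: genes the study names; the 10 highest and lowest under the limits in the text; the extremes and the most abundant gene of each list. Further names (Hsp22, Hsp23, Hsp26, CycA, CycB3, CycE, CycD, Mlc1, Zasp66, Tm2, Mlp60A, Mf, RpL36A, RpL36, RpL34a, RpL13, RpS15Ab, RpS20, ATPsynF, ND-MNLL, COX6B, RFeSP, COX5A, sun, Vm26Aa, Drs, the chorion genes, vas, tj, CG13084, CG13083, and all genes under other observations) were chosen after their values were seen. The members and lists were chosen with earlier results of these data known. The calculation was tested on simulated data. Alternatives were fold, FPKM limits, pseudocount, centring, rescaling, bounds, and leaving out heat-changed, shared or marker genes.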

Additional observations from a re-analysis of the deposited data

How the results depend on the processing

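The counts move with the limits and the scale. At a fold of 2, 98 genes were lower and 16 higher. Over 20 FPKM, 196 and 37 were, over 10 FPKM in all 4 columns 253 and 47, and with no filter on low values 1010 and 715. Centring on the median gave 200 and 120, and rescaling to equal totals 110 and 319, so the share of calls that are higher went from 18.5% to 37.5% and 74.4%. Combined bounds off 0 left 167 and 33, and leaving out shared loci or a status that is not OK 158 and 31. A pseudocount of 1 FPKM gave 283 and 63 and leaving out genes changed at 0.5 h 292 and 64. In alternatives added after the values were seen, leaving out marker genes gave 297 and 70 and rescaling without RpL41 234 and 104. The median log2 TE change of -0.11 depends on the scale: it was 0.18 with equal totals, -0.029 with equal totals without RpL41 and 0.0 by construction when centred, and between -0.11 and -0.10 under the other alternatives run. The shortest proteins lay at -0.20 to -0.19 relative to the longest under each alternative run, but lengths were matched for the 5809 genes only, so this was not run without a filter. Under rescaling to equal totals 17 of 26 list medians went from below to above 0, and without RpL41 4 did.

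No paired analysis was possible because the deposited tables hold 1 value per time point, with no value per replicate, and leaving out a replicate could not be run for the same reason. The p of a difference cannot be had from these values, and the bounds stand in for replicate error. Genes with few footprints are outside the set, so loss of TE in repressed mRNAs is not covered.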

Other observations

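The genes and gene groups in this and the next paragraph were chosen after their values were seen, and none was tested. All 3 members of the E(spl) complex and its relative Hesr that passed the limits, of 8 such genes in the table, had higher TE. These genes encode repressors that respond to Notch. E(spl)m3-HLH had RNA of 62.2 FPKM at no HS and 23.3 at 38 h and footprints of 53.6 and 53.1, a log2 TE change of 1.40 (0.69 to 2.12). E(spl)mbeta-HLH was at 1.15 (0.15 to 2.15) and Hesr at 1.75 (0.31 to 3.18). RNA was lower in each while footprints kept closer to the starting level. Hesr, with RNA of 11.1 and 4.87 FPKM, passed the RNA limit only through no HS, so its lower RNA is fixed by the limit. RNA of E(spl)m3-HLH was already 18.6 FPKM at 0.5 h, and both E(spl) genes changed more than 3-fold at that time.

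Of 5 prefoldin subunits, which hand tubulin and actin to the folding machinery, all lay below 0 and 2 were lower, with Pfdn4 at -1.19 with bounds off 0 and Pfdn6 at -0.03. Both lysosomal Cln genes were higher, Cln3 at 0.77 (0.15 to 1.38) and Cln7 at 0.81 with bounds that span 0. Footprints of Cln7, at 7.57 and 13.3 FPKM, passed the limit only through 38 h, so their rise is fixed by it. Outside the lists, HmgD, a small chromatin protein, was at -1.22 with bounds off 0, Taf12 at -1.15, RpII18, a polymerase subunit, at -1.07, and CG45100, of 38 residues, at -1.08. Each of these has fewer than 200 residues. The gene vsg, with 262 residues, was higher at 0.73 (0.13 to 1.34).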
